A study of Mus musculus with 2 samples.

Results

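The genes described here encode lysozymes, C-type lectins of the REG3 group, alpha-defensins and other proteins that Paneth cells store and release against bacteria. They were Lyz1, Lyz2, Reg3b, Reg3g, Reg3a, Ang4, Defa24, Defa17, Itln1 and Pla2g2a, chosen by name, and every non-control probe that carried one of these names in both array tables was taken. Of the 10 genes, 9 had a probe, with 11 probes in all, and 8 had a probe that the scanner software marked as well above background on at least 1 array. These 8 were among 15248 genes measured in that way.

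RNA came from cells of Peyer's patches, lymphoid tissue in the wall of the small intestine, of C57BL/6 mice. After enzyme digestion of the tissue (dispase, collagenase and a DNase), the S100A4-positive cells and the S100A4-negative cells were sorted by flow cytometry. Both groups carried the S100A4-GFP transgene, in which green fluorescent protein reports the gene of the calcium-binding protein S100A4, and the age and number of the mice and any pooling are not given in the sources used here. Each group was measured on 1 Agilent 1-colour array, so no difference has a replicate check, no test between the groups was possible, and the error given with a difference is the scanner software's error for single spots.

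Paneth cells sit at the base of small intestinal crypts and secrete granules of lysozyme, alpha-defensins, angiogenin 4 and other antimicrobial proteins into the crypt lumen. Lysozyme cuts the peptidoglycan of bacterial cell walls, alpha-defensins disrupt bacterial membranes, and REG3 lectins keep bacteria away from the epithelial surface. In mice Lyz1 is the lysozyme gene of Paneth cells and Lyz2 that of macrophages, monocytes and neutrophils, and phagocytes under the dome of Peyer's patches are also known to make lysozyme. REG3 lectins are made by enterocytes and other epithelial cells as well as by Paneth cells, and their genes respond to bacteria through MyD88 and to interleukin 22 through STAT3.

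Probes of the array are 60 bases long, and what each one reads depends on how much of it is shared with related genes. The first 30 bases are shown of the probes of Lyz1, Lyz2, Reg3b and Reg3g, the genes with the widest differences, with none of the letters in capitals.
Lyz1: ccaataaccacaggagcaaatctaatctca
Lyz2, later probe: cttaagttccttcattcacactaactctga
Reg3b: gtgaagactcacctagaaaaagcattttct
Reg3g: gagtacagaattgacatcatgggttgatat
The longest run of bases that each of these probes shared with a probe of any other name on the array was 14 for Lyz1, 14 for the later Lyz2 probe, 13 for Reg3b and 12 for Reg3g. These runs compare probe with probe. How far a probe matches the rest of a relative's transcript, such as the Lyz1 probe that of Lyz2 or the Reg3b probe that of Reg3g, was not analysed here.

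The alpha-defensin probes were different. The probes below, named Defa1 and Defa3 on the array, overlap by 56 bases when aligned, 52 of those bases are the same, and capitals mark the 4 that differ.
Defa1: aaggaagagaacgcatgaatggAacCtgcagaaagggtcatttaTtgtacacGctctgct
Defa3: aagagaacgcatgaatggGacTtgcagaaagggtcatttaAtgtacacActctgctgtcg
The Defa24 probe shared a run of 35 bases with a Defa23 probe, and the array files list RefSeq transcripts of both Defa24 and Defa30 for it. A defensin value is therefore that of a probe and cannot be assigned to a single gene.

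Among the 8 measured genes, Lyz1, Lyz2 and Ang4 were at least 2-fold higher in S100A4-positive cells, Reg3b, Reg3g and Reg3a were at least 2-fold lower, and Defa24 and Itln1 lay within 2-fold. Over all 15248 genes, 21.4% passed 2-fold upward, 17.0% downward and 38.4% in either direction. Differences are S100A4-positive minus S100A4-negative on the log2 scale, after the 75th percentile of each array was set to 0, a scale on which the median of all genes was 0.01. With no scaling the shares were 12.9% higher and 35.0% lower, and on the scale of the spike-in controls 3.88% higher and 83.2% lower. As a check of the sort, S100a4 itself gave a signal of 119341 in S100A4-positive cells and 1057 in S100A4-negative cells, a difference of 7.45 ± 0.20.

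**Figure D1:**
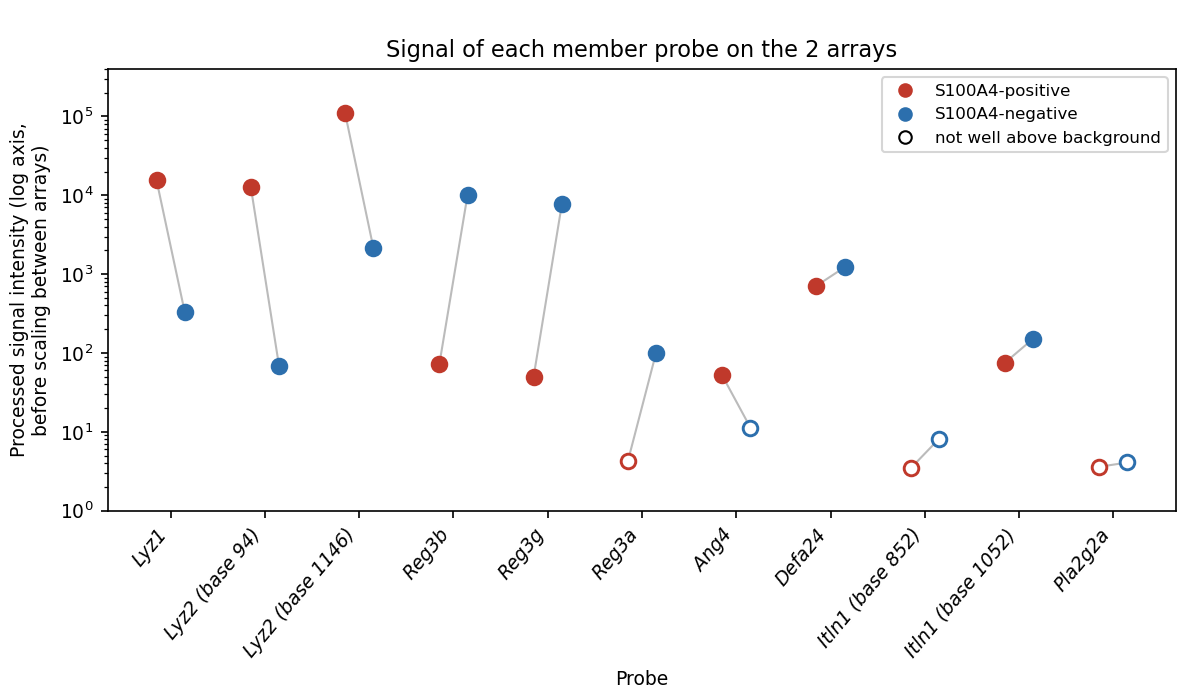
Processed signal intensity (log axis, arbitrary scanner units, before scaling between arrays) of each probe of the named genes on the S100A4-positive array (red) and the S100A4-negative array (blue), with open circles where a probe was not well above background. The 3 lysozyme probes are higher on the S100A4-positive array, the 3 REG3 probes are higher on the S100A4-negative array, and the probes of Defa24 and Itln1 lie close together.

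Lysozyme transcripts were abundant in S100A4-positive cells and far scarcer in S100A4-negative cells. Lyz1, the lysozyme gene of Paneth cells, gave a signal of 15488 in S100A4-positive cells and 326 in S100A4-negative cells at a probe that starts at base 1194 of its transcript (mm9 chromosome 10, 116724862 to 116724921, minus strand). The difference was 6.20 ± 0.20, or 73.7-fold, and it ranked 63 from the top among the genes measured on both arrays. The raw signal was 261 times the local background in S100A4-positive cells and 6.31 times in S100A4-negative cells, so the gene was seen in both.

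Lyz2, the lysozyme gene of phagocytes, was higher at both of its probes. The later probe, at base 1146 of the transcript (chromosome 10, 116714450 to 116714509), gave 110401 in S100A4-positive cells and 2160 in S100A4-negative cells, a difference of 6.31 ± 0.20 or 79.3-fold. The earlier probe, at base 94 (chromosome 10, 116719175 to 116719234), gave 12729 in S100A4-positive cells and 67.9 in S100A4-negative cells, a difference of 8.18 ± 0.22 or 291-fold. Both probes point the same way, but their differences were 1.87 ± 0.30 apart, more than the scanner error. The earlier probe was close to the floor in S100A4-negative cells, at 2.20 times the local background, against 35.9 times at the later probe on the same array. The earlier probe is shown because it is the one with the wider difference.
Lyz2, earlier probe: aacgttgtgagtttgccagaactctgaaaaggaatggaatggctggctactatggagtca
Its longest run shared with a probe of another name was 13 bases.

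The differences of Lyz1 and the later Lyz2 probe were equal within their scanner errors. In the RefSeq gene table the genes are neighbours on chromosome 10, and the nearest measured protein-coding genes around them did not share the difference. Cpsf6, beside Lyz1, gave 936 in S100A4-positive cells and 2073 in S100A4-negative cells, a difference of -0.51 ± 0.20. The gene directly beside Lyz2, 9530003J23Rik, was not measured. Yeats4, next beyond it, gave 2906 in S100A4-positive cells and 7767 in S100A4-negative cells, a difference of -0.78 ± 0.20. Cpm, a membrane carboxypeptidase gene on the other side of Cpsf6, was lower in S100A4-positive cells, at -2.76 ± 0.20.

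Of the 10 genes listed for the lysozyme family, 4 were measured. Of these, 3 were at least 2-fold higher in S100A4-positive cells and 1 lay within 2-fold, beside 21.4% higher and 17.0% lower over all genes. Lyzl4, a lysozyme-like gene known from the male reproductive tract, gave 67.6 in S100A4-positive cells and 37.7 in S100A4-negative cells, a difference of 1.47 ± 0.28 at low signal. Lalba, which encodes alpha-lactalbumin, gave 63.7 in S100A4-positive cells and 99.4 in S100A4-negative cells, a difference of -0.01 ± 0.23. The median of the 4 was 3.84, beside 0.01 over all genes. On the spike-in scale it was 1.32, beside -2.46 over all genes, and the difference of Lyzl4 fell below 0. With no filter, where all 10 listed genes enter, the median was 0.69, beside 0.40 over all genes.

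The promoters of Lyz1 and Lyz2 are shown because the differences of these genes had the same direction and similar size. The windows are those RefSeq gives on build GRCm38.p6, from 250 bases before to 50 bases after the start, both on the minus strand. The Lyz1 window is chr10:117292819-117293118 and the Lyz2 window chr10:117282223-117282522. Capitals mark their longest shared run, of 86 bases.
Lyz1 promoter: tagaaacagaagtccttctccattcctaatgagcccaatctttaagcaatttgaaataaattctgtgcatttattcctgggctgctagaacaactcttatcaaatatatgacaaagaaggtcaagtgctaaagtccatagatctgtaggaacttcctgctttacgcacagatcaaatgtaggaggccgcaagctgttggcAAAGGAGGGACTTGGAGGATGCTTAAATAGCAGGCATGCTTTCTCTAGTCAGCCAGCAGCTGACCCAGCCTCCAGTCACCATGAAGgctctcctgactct
Lyz2 promoter: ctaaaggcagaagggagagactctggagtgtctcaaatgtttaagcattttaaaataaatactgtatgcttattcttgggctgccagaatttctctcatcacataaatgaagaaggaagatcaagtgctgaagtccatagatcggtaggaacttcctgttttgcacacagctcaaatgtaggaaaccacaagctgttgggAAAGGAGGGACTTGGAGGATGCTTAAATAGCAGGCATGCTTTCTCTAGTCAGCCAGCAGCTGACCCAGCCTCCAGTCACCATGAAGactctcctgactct
Of 298 aligned bases 249 were the same (83.6%). Both hold CAGCTG, an E-box, 6 bases after the start, inside the shared run, and 16.4% of 32544 promoters of this length hold it. A search on both strands for GAGGAAG, a core that the myeloid factor PU.1 can bind, found no match in either window, and 13.4% of all promoters hold one. TTGCNNAA, letters that C/EBP factors can bind, was found in Lyz1 209 bases before the start on the reverse strand and not in Lyz2. It was also found in the Reg3a promoter, 190 bases before the start on the forward strand, and is held by 10.8% of all promoters. These matches describe the exact letters only. Other letters that PU.1 or C/EBP factors can bind were not searched, so the lack of a match does not show that a site is missing.

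The REG3 genes showed the opposite pattern, with signals near the floor in S100A4-positive cells and strong signals in S100A4-negative cells. Reg3b, which encodes a lectin that acts mainly on Gram-negative bacteria, gave 71.9 in S100A4-positive cells and 10179 in S100A4-negative cells (probe at base 621, chromosome 6, 78323323 to 78323382, plus strand). The difference was -6.51 ± 0.22, which is 91.3-fold lower in S100A4-positive cells. Reg3g, whose product binds the peptidoglycan of Gram-positive bacteria, gave 49.9 in S100A4-positive cells and 7724 in S100A4-negative cells (probe at base 556, chromosome 6, 78416420 to 78416479, minus strand). The difference was -6.64 ± 0.24, or 99.6-fold lower.

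Among the genes measured on both arrays, Reg3g had the 5th lowest difference and Reg3b the 7th lowest. The raw signal of Reg3g was 2.00 times the local background in S100A4-positive cells and 114 times in S100A4-negative cells. That of Reg3b was 2.41 times in S100A4-positive cells and 154 times in S100A4-negative cells, so the S100A4-positive values carry the larger relative uncertainty. The differences of Reg3b and Reg3g were equal within their scanner errors.

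Reg3a, a further lectin of the group, was weaker. Its signal was 4.24 in S100A4-positive cells, where it was not well above background, and 100.9 in S100A4-negative cells (probe at base 638, chromosome 6, 78333635 to 78333694). It was at least 4.13-fold lower in S100A4-positive cells, a bound set against the lowest signal on that array that was well above background.
Reg3a: cccatgacaagggatgaaatacaagaattc
These first 30 bases of its probe are given because the bound rests on that probe alone, and its longest run shared with a probe of another name was 13 bases.

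Of 7 REG family genes listed, 6 were measured. In S100A4-positive cells 5 of the 6 were at least 2-fold lower and none higher, beside 17.0% and 21.4% over all genes. The median of the 6 was -4.16, genes without signal on 1 array being entered at the bound. Reg1, known from the exocrine pancreas and from injured gut epithelium, gave 3.52 in S100A4-positive cells, not well above background, and 821 in S100A4-negative cells, at least 33.6-fold lower. Reg4, known from enteroendocrine and goblet-like cells, gave 3.84, not well above background, in S100A4-positive cells and 232 in S100A4-negative cells, at least 9.5-fold lower.

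Reg3d gave 13.6 in S100A4-positive cells and 20.9 in S100A4-negative cells, only the second value being well above background, and no fold can be given. Reg2 was not well above background on either array. Reg3b, Reg3d, Reg3a, Reg2, Reg1 and Reg3g follow one another in this order among the protein-coding genes of the RefSeq table on chromosome 6. Within that cluster the genes with signal in S100A4-negative cells were thus interspersed with genes at or near background on both arrays.

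**Figure D2:**
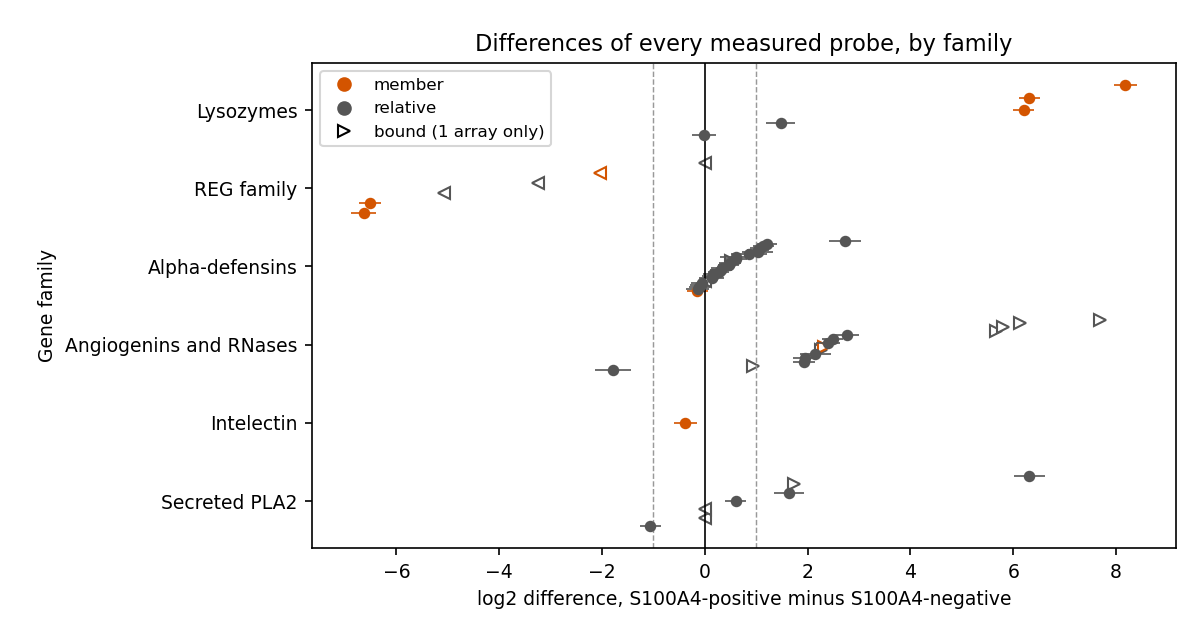
Difference on the log2 scale (S100A4-positive minus S100A4-negative) of every probe well above background on at least 1 array, by gene family, with the named genes in orange and their relatives in grey. Bars are the scanner software's error, open triangles are bounds that point towards the larger difference, and dashed lines mark 2-fold. Lysozyme probes lie to the right at up to 8.18, Reg3b and Reg3g to the left at -6.51 and -6.64, and 18 of 24 alpha-defensin probes between the dashed lines, a position that shifts by -2.52 on the spike-in scale.

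The Reg3b and Reg3g promoters are printed for the same reason, from chr6:78370635-78370934 on the plus strand for Reg3b and chr6:78468825-78469124 on the minus strand for Reg3g (RefSeq, GRCm38.p6). Capitals mark their longest shared run, of 29 bases, which surrounds the start.
Reg3b promoter: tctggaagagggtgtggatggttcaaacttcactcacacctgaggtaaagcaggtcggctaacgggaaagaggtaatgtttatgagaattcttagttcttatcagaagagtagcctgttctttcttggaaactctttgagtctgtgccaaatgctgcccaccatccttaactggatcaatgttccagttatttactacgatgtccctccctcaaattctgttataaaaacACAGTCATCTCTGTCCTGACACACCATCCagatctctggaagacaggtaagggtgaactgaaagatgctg
Reg3g promoter: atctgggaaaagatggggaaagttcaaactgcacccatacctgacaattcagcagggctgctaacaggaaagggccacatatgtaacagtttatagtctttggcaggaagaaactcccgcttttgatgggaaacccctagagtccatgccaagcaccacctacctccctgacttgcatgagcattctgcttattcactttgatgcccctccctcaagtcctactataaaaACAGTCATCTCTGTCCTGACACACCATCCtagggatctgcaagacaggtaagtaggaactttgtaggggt
Of 296 aligned bases 207 were the same (69.9%). TATAAA, the TATA box, was found 29 bases before the start of Reg3b and 27 bases before that of Reg3g, both on the forward strand, and Reg3g holds a further match on the reverse strand, 161 bases before the start. It is held on either strand by 13.6% of all promoters. TTCNNNGAA, letters that STAT factors bind, was found 129 bases before the start of Reg3b and was not found in Reg3g or Reg3a. It was also found in the Ang4 promoter, 192 bases before the start, and is held by 8.33% of promoters. The Reg3a promoter aligned to that of Reg3g with 70.9% and to that of Reg3b with 66.4% of bases the same.

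Signals of alpha-defensins, the defining granule peptides of mouse Paneth cells, were of similar size on both arrays. Defa24 gave 710 in S100A4-positive cells and 1223 in S100A4-negative cells, and once each array was centred the difference was -0.15 ± 0.20, within the scanner error (probe at base 356, mm9 chromosome 8, 22845881 to 22845940). On the spike-in scale it was -2.67, and with no scaling -0.78, so whether Defa24 lay within 2-fold depended on the scaling.

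Defa17 had no probe under its own name. Its transcript was listed by the array files for 3 probes that carry other names. The Defa23 probe at base 329 gave 577 in S100A4-positive cells and 802 in S100A4-negative cells, a difference of 0.16 ± 0.20. The Defa3 probe at base 252, printed above, gave 246 in S100A4-positive cells and 304 in S100A4-negative cells, a difference of 0.33 ± 0.21. The Defa3 probe at base 287 gave 336 in S100A4-positive cells and 563 in S100A4-negative cells, a difference of -0.11 ± 0.20. All 3 lay within 2-fold, and none of them is a measurement of Defa17 alone. The Defa1 probe printed above, which also lists the Defa24 transcript, gave 172 in S100A4-positive cells and 215 in S100A4-negative cells, a difference of 0.32 ± 0.21.

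Over all 33 alpha-defensin probes, 24 were well above background on at least 1 array and 22 on both. Of the 24, 18 lay within 2-fold, 6 were at least 2-fold higher in S100A4-positive cells and 0 lower, beside 20.9% higher and 14.8% lower among all probes. Signals ran between 28.2 and 737 in S100A4-positive cells and between 22.0 and 1223 in S100A4-negative cells for the probes seen on both arrays. Differences ran between -0.15 and 2.72 with a median of 0.40, and the spike-in scale shifts all of them by -2.52.

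The widest defensin difference was at a probe whose RefSeq transcript belongs to Defa39, the neighbour of Defa24 in the gene table. It gave 93.5 in S100A4-positive cells and 22.0 in S100A4-negative cells, a difference of 2.72 ± 0.32. Probes that list Defa38, Defa42 or Defa43 were higher by 1.14 ± 0.21, 1.08 ± 0.21 and 1.04 ± 0.22, and the Defa43 probe lists transcripts of Defa38 and Defa42 as well, so it is no independent reading of them. A probe for the group of Defa36, Defa5, Defa37 and Defa34 was higher by 1.03 ± 0.30 at its later position and by 0.46 ± 0.21 at its earlier one. These probes were named after their values were seen.

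Ang4, an angiogenin that mouse Paneth cells secrete and that kills gut bacteria, was well above background in S100A4-positive cells only. Its signal was 52.0 in S100A4-positive cells and 11.3 in S100A4-negative cells, where it was not well above background (probe at base 136, chromosome 14, 52384066 to 52384125). It was at least 5.0-fold higher, but at only 2.11 times the local background in S100A4-positive cells, and on the spike-in scale no fold above 1 could be given.
Ang4: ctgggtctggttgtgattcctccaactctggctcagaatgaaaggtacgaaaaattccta
The whole probe is shown because Ang4 has similar relatives in its family. The longest run it shared with a probe of another name was 16 bases.

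On the 75th percentile scale, 14 angiogenin and RNase A family genes were measured. In S100A4-positive cells 11 were at least 2-fold higher and 1 lower, beside 21.4% and 17.0% over all genes. The family median was 2.36 at bounds, which became 0 on the spike-in scale. Ang, the founding angiogenin, gave 128 in S100A4-positive cells and 37.8 in S100A4-negative cells, a difference of 2.40 ± 0.24. Rnase4, which shares a locus with Ang, gave 178 in S100A4-positive cells and 40.9 in S100A4-negative cells, a difference of 2.76 ± 0.24. Rnase6, an antimicrobial RNase of phagocytes, gave 3180 in S100A4-positive cells and 881 in S100A4-negative cells, a difference of 2.49 ± 0.20.

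The eosinophil-associated RNase gene Ear2 gave 2356 in S100A4-positive cells and 17.8, not well above background, in S100A4-negative cells, and was at least 205-fold higher. Ear12 was at least 70.3-fold and Ear1 at least 55.9-fold higher. Ear genes are close copies of one another, so how much each probe reads of its relatives is uncertain. Rnase12 was the member in the other direction, with 17.0 in S100A4-positive cells and 91.4 in S100A4-negative cells, a difference of -1.79 ± 0.35.

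Itln1, which encodes intelectin 1, a lectin of Paneth and goblet cells that binds microbial sugars, had 2 probes. The probe at base 1052 (chromosome 1, 173448282 to 173448341) gave 75.1 in S100A4-positive cells and 152 in S100A4-negative cells, a difference of -0.38 ± 0.22. The other, at base 852, gave 3.44 in S100A4-positive cells and 8.11 in S100A4-negative cells and was not well above background on either array. The first lay within 2-fold, except with no scaling (-1.01) and on the spike-in scale (-2.89).

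Pla2g2a, which encodes the group IIA secreted phospholipase A2 of Paneth cells in many mouse strains, was not detected. Its signal was 3.59 in S100A4-positive cells and 4.08 in S100A4-negative cells, not well above background on either array (chromosome 4, 138390766 to 138390825). C57BL/6 mice are known to carry a disrupted copy, and the RefSeq table classes the gene as a transcribed pseudogene.

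Of the 11 secreted phospholipase A2 genes listed, 5 were measured. Pla2g5, known from macrophages, gave 54.6 in S100A4-positive cells and 27.0 in S100A4-negative cells, a difference of 1.65 ± 0.29. Pla2g12a gave 158 in S100A4-positive cells and 510 in S100A4-negative cells, a difference of -1.06 ± 0.21. Pla2g2d, known from dendritic cells of lymphoid tissue, had probes that disagreed, as one gave 721 in S100A4-positive cells and 739 in S100A4-negative cells, a difference of 0.60 ± 0.20. The other gave 1057 in S100A4-positive cells and 20.7 in S100A4-negative cells, a difference of 6.31 ± 0.30.

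The list of alpha-defensins and Paneth cell genes also holds Ang4, Itln1 and the defensins described above. In it 20 of 36 were measured. Of these, 5 were at least 2-fold higher, 1 lower and 14 within 2-fold, beside 21.4% higher and 17.0% lower over all genes. The share higher was near that over all genes. The list median of 0.34 became -2.17 on the spike-in scale. Mmp7, the protease that activates mouse alpha-defensins, gave 168 in S100A4-positive cells and 114 in S100A4-negative cells, a difference of 1.18 ± 0.21. Nod2, a sensor of bacterial peptidoglycan known from Paneth cells and phagocytes, gave 470 in S100A4-positive cells and 193 in S100A4-negative cells, a difference of 1.92 ± 0.21. Spink4, a secreted inhibitor made by goblet and Paneth cells, was at least 22.8-fold lower, with 4.69 (not well above background) in S100A4-positive cells and 558 in S100A4-negative cells.

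Of 43 antimicrobial effectors listed outside these families, 26 were measured, 12 at least 2-fold higher, 5 lower and 9 within 2-fold, beside 21.4% higher and 17.0% lower over all genes, with a median of 0.89 that became -1.62 on the spike-in scale. Chil3, a chitinase-like protein of macrophages, gave 6294 in S100A4-positive cells and 104 in S100A4-negative cells, a difference of 6.56 ± 0.21. Slc11a1, a metal transporter of phagosomes, was higher by 4.78 ± 0.21, and Mpeg1, the pore-forming perforin-2 of phagocytes, by 4.39 ± 0.20.

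In the other direction, Zg16, a goblet cell lectin that binds Gram-positive bacteria, gave 20.5 in S100A4-positive cells and 4599 in S100A4-negative cells, a difference of -7.18 ± 0.31. Lypd8, a protein of colonic epithelium that binds flagella, gave 36.7 in S100A4-positive cells and 4735 in S100A4-negative cells, a difference of -6.38 ± 0.25. The calprotectin genes S100a9 and S100a8 of neutrophils were lower by smaller amounts, at -1.93 ± 0.21 and -1.48 ± 0.25.

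Markers of several other cell types also differed between the arrays. Counts of markers here and in the next paragraph stand beside 21.4% higher and 17.0% lower over all genes. Of 17 markers of macrophages and monocytes, 16 were at least 2-fold higher in S100A4-positive cells, with a median of 5.25, and their summed level was 393 in S100A4-positive cells and 37.0 in S100A4-negative cells, in units of each array's 75th percentile. C1qa, a complement gene of tissue macrophages, gave 6272 in S100A4-positive cells and 69.4 in S100A4-negative cells. For classical dendritic cells 9 of 9 measured markers were higher, with sums of 114 in S100A4-positive cells and 7.64 in S100A4-negative cells. Neutrophil markers were mixed, 4 higher, 3 lower and 4 within 2-fold, with sums of 125 in S100A4-positive cells and 84.1 in S100A4-negative cells. Nearly all of both sums was Csf3r, and without it, also compared after the values were seen, they were 2.39 in S100A4-positive cells and 3.33 in S100A4-negative cells.

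Paneth cell markers summed to 60.5 in S100A4-positive cells and 6.41 in S100A4-negative cells, but without Lyz1, a comparison added after the values were seen, to 6.61 in S100A4-positive cells and 5.67 in S100A4-negative cells. Goblet cell markers had 7 of 8 measured lower in S100A4-positive cells, with sums of 0.368 in S100A4-positive cells and 35.1 in S100A4-negative cells, and 5 of them were not well above background in S100A4-positive cells at the probe used. Markers of enterocytes and epithelium had 16 of 18 lower, with sums of 8.19 in S100A4-positive cells and 56.4 in S100A4-negative cells. Of the other lists, 5 of 7 measured M cell markers were at least 2-fold higher and 7 of 7 B cell markers at least 2-fold lower, while of 8 T cell markers 2 were higher, 4 lower and 2 within 2-fold. The part of these cell types in the lysozyme and REG3 differences was not tested, and in sorted bulk RNA fewer cells of a type and less RNA per cell cannot be told apart.

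**Figure D3:**
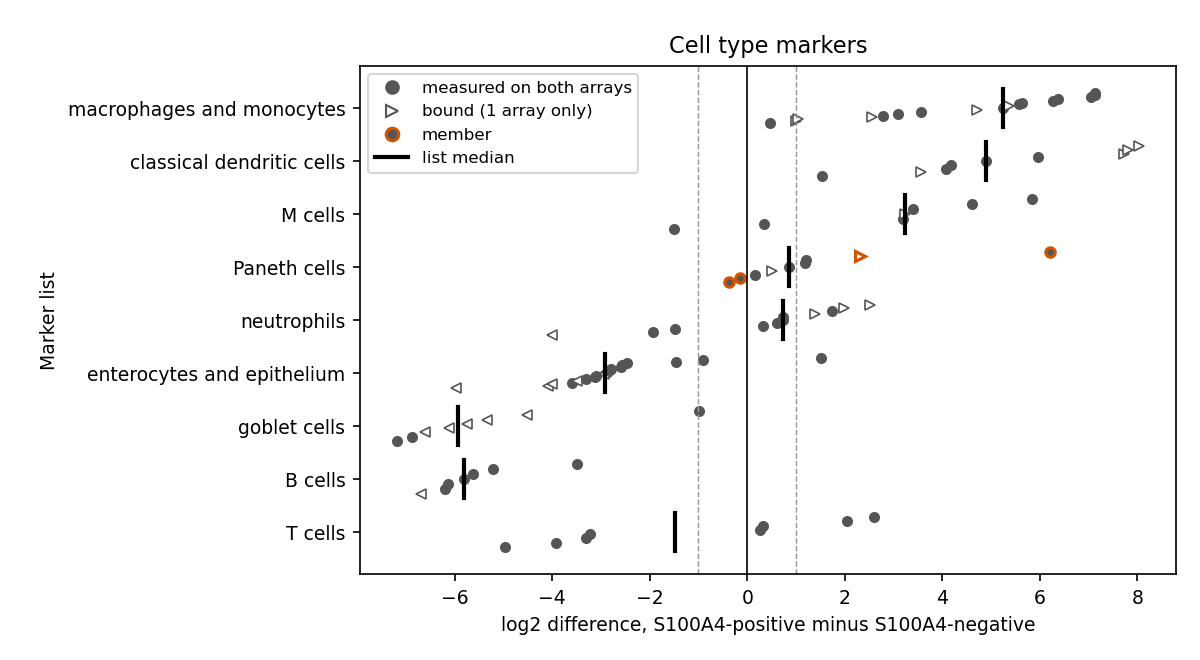
Difference on the log2 scale (S100A4-positive minus S100A4-negative) of each measured marker gene by cell type, with black bars for list medians, open triangles for bounds and orange outlines for the genes described here. Macrophage and dendritic cell markers lie to the right (medians 5.25 and 4.90), goblet and epithelial markers to the left (-5.94 and -2.91), and most Paneth cell markers near 0, with Lyz1 at 6.20 apart from the defensins, positions that shift by -2.52 on the spike-in scale.

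Lyz1, Lyz2, Reg3b and Reg3g kept their direction and a size of at least 2-fold under all 10 other ways of processing the arrays. Several of the 10 could not change the result. Lyz1, Reg3b and Reg3g each have a single probe seen on both arrays, so the other filters and the median over probes left them unchanged. The other filters left Lyz2 unchanged too. The deposited value table gave nearly the quantile values, as for Lyz1 with 6.00 and 6.02. Lyz1 ranged between 3.69 and 6.25 and Lyz2 between 3.79 and 7.25, lowest on the spike-in scale. Reg3b ranged between -9.03 and -5.76 and Reg3g between -9.15 and -5.52. Reg3a and Ang4, each seen on 1 array, were less secure: Reg3a was below 2-fold with normexp background correction (-0.63), and Ang4 had no bound above 0 on the spike-in scale.

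**Figure D4:**
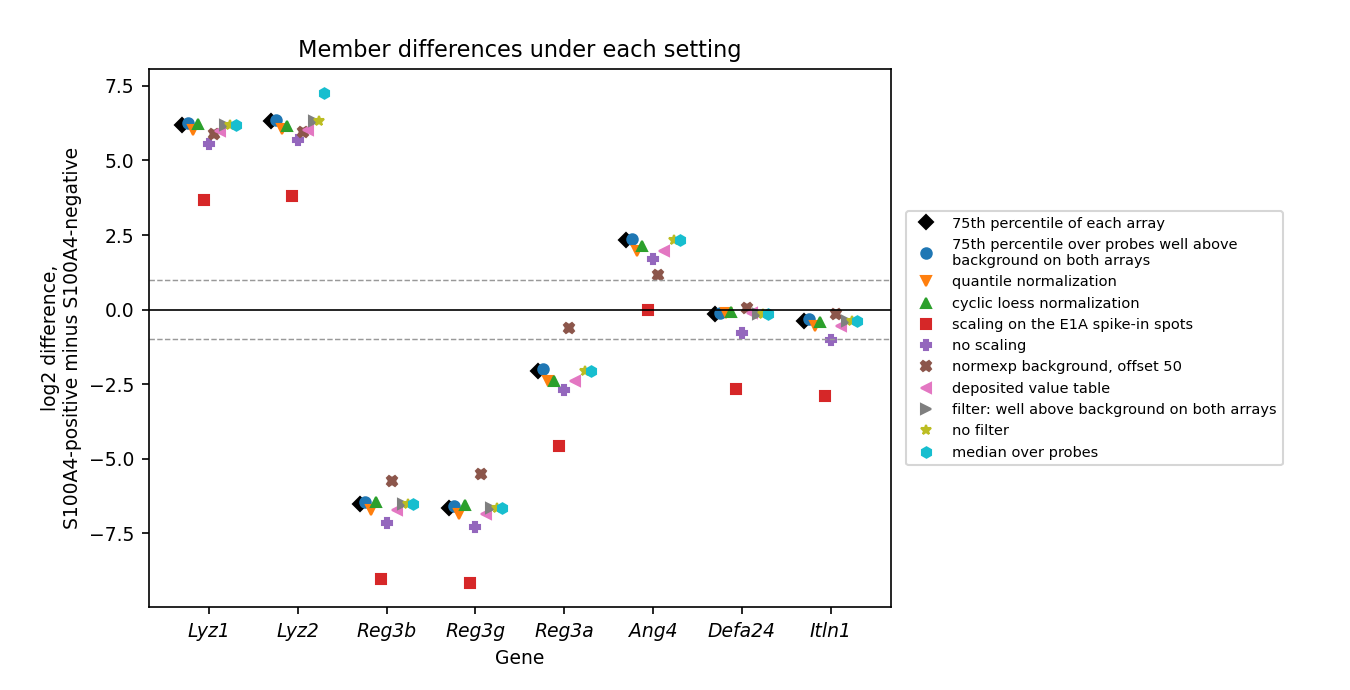
Difference on the log2 scale (S100A4-positive minus S100A4-negative) of each measured gene under the reported processing (black diamonds) and 10 alternatives, with dashed lines at 2-fold. The alternatives of Lyz1 and Lyz2 lie at 3.69 or higher and those of Reg3b and Reg3g at -5.52 or lower, while Defa24 and Itln1 leave the band around 0 on the spike-in scale (-2.67 and -2.89).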

How the data were processed

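Cy3-labelled RNA of each group was hybridised to 1 Agilent 1-colour array. Per the file headers, Agilent Feature Extraction 10.7.1.1 made the deposited processed signal intensity, background-subtracted and not normalized between arrays, while version 9.5.1.1 stands in the submitters' processing notes. The deposited flags for spots well above background and for outliers, another kind of value made by the authors' software, were taken as given. A deposited value table of intensity was an alternative, and its making is described nowhere in the sources used here.

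Without control and outlier spots, signals were turned into log2 values and set relative to the 75th percentile of the array. This percentile was 287 on the S100A4-positive and 446 on the S100A4-negative array, taken over all 59305 non-control spots with outlier spots included. Of these, 52.3% were well above background on the S100A4-positive and 53.3% on the S100A4-negative array, and 0 were saturated. Over detected spots the median of raw signal over local background was 5.35 (S100A4-positive) and 6.80 (S100A4-negative). The number of arrays limits the precision. A gene took its brightest probe well above background on at least 1 array. Where 1 array had no such signal, the fold is a bound. Probe coordinates on mm9 come from the array files, and exon and UTR positions were not analysed here. Sequences are those of the array files and of RefSeq promoters on GRCm38.p6, which held 7 of the 10 genes.

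The genes and lists were chosen with earlier results of these data known. Named genes were all 10 genes and their families, up to 4 with the largest differences each way per list and up to 3 seen on 1 array, and defining markers. Some genes that this rule takes are not reported here. No test was run. Alternatives were quantile and cyclic loess normalization and normexp with an offset of 50 (limma 3.58.1, R 4.3.3), spike-in, no or detected-probe scaling, other filters on dim probes, the median over probes and the value table. Other steps used Python 3.11.15, numpy 2.4.6, pandas 2.3.3, Biopython 1.88 and matplotlib 3.10.9. Simulated arrays with known answers were also tested (S100A4-positive against S100A4-negative, 15248 genes). Of genes planted at log2 3, 50 of 50 passed 2-fold, as did 50 of 50 at -3 and 1 of 50 at 0.5. Differences were planted only in genes well above background on both arrays, with noise no larger than the scanner error. The simulation therefore says nothing of variation between arrays or mice, or of genes seen on 1 array.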

Additional observations from a re-analysis of the deposited data

How the results depend on the processing

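Under the 10 alternatives the count of genes at least 2-fold higher stayed within 1.5 times its value of 3. The count at least 2-fold lower became 5 on the spike-in scale, against 3, with Defa24 and Itln1 added. The 7 spike-in probes were 3.69-fold brighter on the S100A4-positive array, which shifts every difference by -2.52, and no scaling shifts them by -0.63. Requiring signal on both arrays removes Reg3a and Ang4, and normexp gave 1.15 for Ang4. Lyz2 was 7.25 as the median of its probes. No called direction reversed among the genes chosen by name. Among other genes measured on both arrays, positive differences smaller than 2.52 change sign on the spike-in scale, such as those of Lyzl4, Mmp7 and Nod2. The dim array's signal over background limits Reg3a, Ang4 and the earlier Lyz2 probe. No paired analysis was possible because each group has a single array.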

Other observations

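Signals that act upstream of REG3 and Paneth cell genes were more often higher than lower in S100A4-positive cells. Of 33 listed genes 29 were measured, 14 passing 2-fold upward and 2 downward, beside 21.4% and 17.0% over all genes, and their median of 0.87 became -1.65 on the spike-in scale. Il22ra2, which encodes a soluble antagonist of interleukin 22, gave 8044 in S100A4-positive cells and 77.3 in S100A4-negative cells, a difference of 7.34 ± 0.21. Il22, the cytokine that induces REG3 genes in epithelium, gave 56798 in S100A4-positive cells and 657 in S100A4-negative cells, a difference of 7.07 ± 0.20. Il6, a cytokine that acts through STAT3, gave 863 in S100A4-positive cells and 27.3 in S100A4-negative cells, a difference of 5.62 ± 0.27. Il1b, an inflammatory cytokine, gave 19935 in S100A4-positive cells and 583 in S100A4-negative cells, a difference of 5.73 ± 0.20, with its 3 probes between 3.95 and 5.81. Il23r, a receptor chain for interleukin 23, gave 2133 in S100A4-positive cells and 16.6, not well above background, in S100A4-negative cells. The gene for the signal-giving chain of the IL-22 receptor, Il22ra1, was not well above background on either array. Stat3 gave 7851 in S100A4-positive cells and 10604 in S100A4-negative cells, a difference of 0.20 ± 0.20, and Myd88 was at 0.30 ± 0.20. Il22ra1, Stat3 and Myd88 were named after their values were seen.

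A list of genes known to act in lysozyme packaging or release in mouse Paneth cells, with the REG3 receptor candidate Extl3, had 2 of 10 at least 2-fold higher, 2 lower and 6 within 2-fold. These shares are near the 21.4% higher and 17.0% lower over all genes. The list had a median of 0.53 that became -1.98 on the spike-in scale. Lrrk2, a kinase needed to sort lysozyme into granules, gave 448 in S100A4-positive cells and 3091 in S100A4-negative cells, a difference of -2.15 ± 0.20, opposite to that of Lyz1. Ern1, the stress sensor IRE1 alpha, gave 2121 in S100A4-positive cells and 174 in S100A4-negative cells, a difference of 4.24 ± 0.21, with its 5 probes between 2.68 and 5.16. Ern2, the IRE1 beta of mucus-secreting epithelium, gave 40.0 in S100A4-positive cells and 166 in S100A4-negative cells, a difference of -1.42 ± 0.25. Whether these differences relate to the lysozyme values was not tested.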
